A study of Rattus norvegicus with 20 samples.

Results

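A set of 9 genes of hepatic amino acid breakdown were followed, namely Hal and Uroc1 of the histidine pathway, Tat, Hpd, Hgd and Fah of the tyrosine pathway, Tdo2 and Kmo of the tryptophan pathway, and Sds of the serine pathway. They were found by gene symbol in the platform annotation, and all 9 were present, each on 1 probe set, out of 13462 genes on 27702 tested probe sets. These enzymes remove or rework the nitrogen and the rings of amino acids, so that the carbon can be burned or turned into glucose. They work mostly in hepatocytes, and the liver is known to adjust the messenger RNA of several of them to dietary protein, to fasting and to the hormones glucagon and glucocorticoid.

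Messenger RNA was measured with Affymetrix rat arrays, which read the 3′ ends of transcripts, in livers of male Sprague-Dawley rats that had eaten 1 of 4 diets for 21 days. The rats arrived at 4 weeks of age and first adapted for 5 days on a non-purified diet. In the conventional soybean diet the protein came in equal parts from casein and from Fukuyutaka, a conventional soybean cultivar. Yukipirika, a high-isoflavone cultivar, gave the other soybean protein. The diet with 3 parts casein to 1 part Yukipirika is called 3:1 high-isoflavone, and the diet with equal parts is called 1:1 high-isoflavone. The casein diet held 200 g/kg casein and no soybean, so all 4 diets contained casein. Of 7, 7, 8 and 7 rats fed the conventional soybean, 3:1 high-isoflavone, 1:1 high-isoflavone and casein diets, 5 per diet with average food intake were put on arrays. Array titles were matched to the diets by their wording, which for the 3:1 and 1:1 diets is an inference. For the isoflavone content of the diets, the hour of sampling and any fasting, the sources used here give nothing.

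Values are log2 signals, so that a difference of 1 is a doubling of signal. They describe 1 probe set across rats, and levels are not compared between enzymes. For cell markers, signals were also ranked among all probe sets or summed over a list. A difference was called when its adjusted p from limma was under 0.05 over all 27702 probe sets. All 3 soybean diets were set against the same 5 casein arrays, so these comparisons are not independent.

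The arrays read as liver: the 7 hepatocyte markers measured, albumin (Alb) among them, lay above at least 99.88% of probe sets. Array medians were 2.51 to 2.56 on conventional soybean, 2.43 to 2.52 on 3:1, 2.45 to 2.57 on 1:1 and 2.43 to 2.49 on casein. Each array correlated with every other at 0.926 to 0.967 over probe sets. On 2 arrays, 3:1 replicate 1 and casein replicate 5, the lowest values were cut at a higher floor, at most 0.47 log2, while the lowest value of any of the 9 enzymes was 1.88. In whole liver, fewer cells of a type and less RNA per cell cannot be told apart.

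Against casein, Hal rose on the 1:1 high-isoflavone diet and Tat fell on both diets that took their protein in equal parts from casein and soybean. The other 7 enzymes were not called in any comparison. On the 1:1 diet 2 of 9 enzymes were called, against 2.21% of all probe sets, and on the conventional soybean diet 1 of 9, against 1.64%. On the 3:1 diet limma called 0 of 9, against 0.0397% of all probe sets, and 2 of 9, Hal and Kmo, had an unadjusted p under 0.05, against 8.12% of probe sets. The median of the 9 enzymes lay close to that of all genes. Their median difference from casein was 0.01 on conventional soybean, -0.03 on 3:1 and 0.03 on 1:1, beside 0.04, 0.01 and 0.03 over all 13462 genes.

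**Figure D1:**
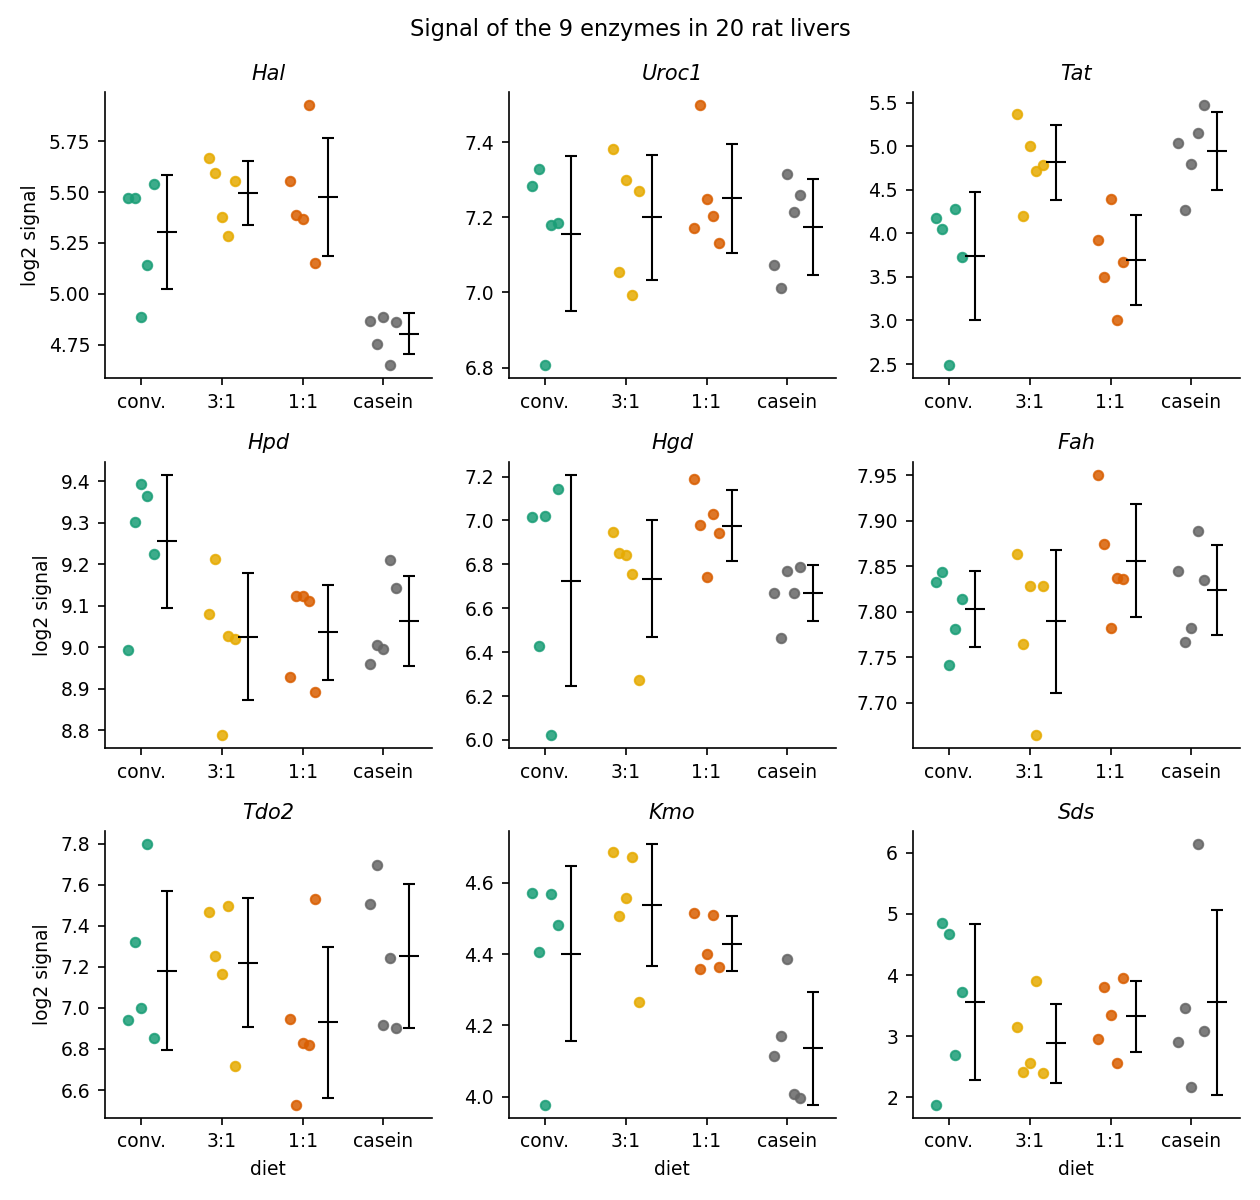
Log2 signal of each of the 9 enzymes in every liver, with 1 panel per gene, 5 rats per diet and, beside them, a bar at the mean with its SD. The Hal points of both high-isoflavone diets lie above all casein points, and the Tat points of the 1:1 and conventional soybean diets lie low.

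Hal encodes histidine ammonia-lyase, which opens histidine breakdown by splitting off ammonia to give urocanate. Its log2 signal was 5.47, 5.47, 4.89, 5.14 and 5.54 in the 5 rats on conventional soybean. It was 5.67, 5.59, 5.38, 5.29 and 5.56 on the 3:1 diet, and 5.55, 5.39, 5.37, 5.93 and 5.15 on the 1:1 diet. On casein it was 4.87, 4.75, 4.89, 4.65 and 4.86. All 10 rats on the high-isoflavone diets were above all 5 casein rats. On conventional soybean 4 of 5 were, and replicate 3 lay within the casein range.

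On the 1:1 diet Hal averaged 5.48 ± 0.290, against 4.80 ± 0.101 on casein (SD, n = 5 each), a 1.60-fold rise with a limma adjusted p of 0.00978. Of all probe sets, 4.45% had groups that did not overlap in this comparison, and Hal was the 1 enzyme of the 9. On the 3:1 diet Hal averaged 5.50 ± 0.158, which is 1.61-fold the casein mean. Its groups did not overlap there either, as for 1.81% of probe sets, but the adjusted p from limma was 0.0616. Hal ranked 17 of 27702 by p in that comparison, in which 11 probe sets were called, and it stayed uncalled in 18 of 20 cases with 1 array left out, the adjusted p reaching 0.180 without casein replicate 4. It was called without conventional replicate 3 (0.0407) or 1:1 replicate 4 (0.0381), and the adjusted p was 0.292 without both arrays of higher floor.

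On conventional soybean Hal averaged 5.30 ± 0.280, 1.41-fold the casein mean, with a limma adjusted p of 0.0620. No enzyme of the 9 had separate groups in that comparison, against 4.62% of probe sets. With 1 array left out Hal stayed uncalled in 17 of 20 cases, with a difference down to 0.44 and an adjusted p as high as 0.15, both without conventional replicate 5. It was called without conventional replicate 3 (difference 0.60, adjusted p 0.0333) or without 1:1 replicate 4 or 5, which enter through the shared spread (0.0381 and 0.0482). The mean of the 3 soybean diets was 0.62 above casein on the log2 scale, with a limma adjusted p of 0.00415. Hal was the 1 enzyme of the 9 called in that pooled contrast, against 2.14% of probe sets in either direction and 1.3% upwards.

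No difference between soybean diets was called in Hal. The 1:1 diet minus the conventional diet gave 0.18, with a 95% interval of -0.10 to 0.45, and the 1:1 diet minus the 3:1 diet gave -0.02, with an interval of -0.30 to 0.26. Along the series of high-isoflavone shares Hal averaged 4.80 on casein, 5.50 on 3:1 and 5.48 on 1:1. The 3:1 mean was 0.35 above the straight line between casein and 1:1, with a limma p of 0.00598 before adjustment that did not hold after it. No probe set departed from that line after adjustment, and 4.34% did at an unadjusted p under 0.05, among them 2 of the 9 enzymes, Hal and Kmo.

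Uroc1 encodes urocanate hydratase, which takes the product of Hal further down the pathway. It ranged over 6.81 to 7.33 on conventional soybean, 6.99 to 7.38 on 3:1, 7.13 to 7.50 on 1:1 and 7.01 to 7.31 on casein. The 4 groups overlapped, and the differences from casein were -0.02, 0.03 and 0.08 on the conventional, 3:1 and 1:1 diets. The 95% interval on the 1:1 diet was -0.14 to 0.29.

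**Figure D2:**
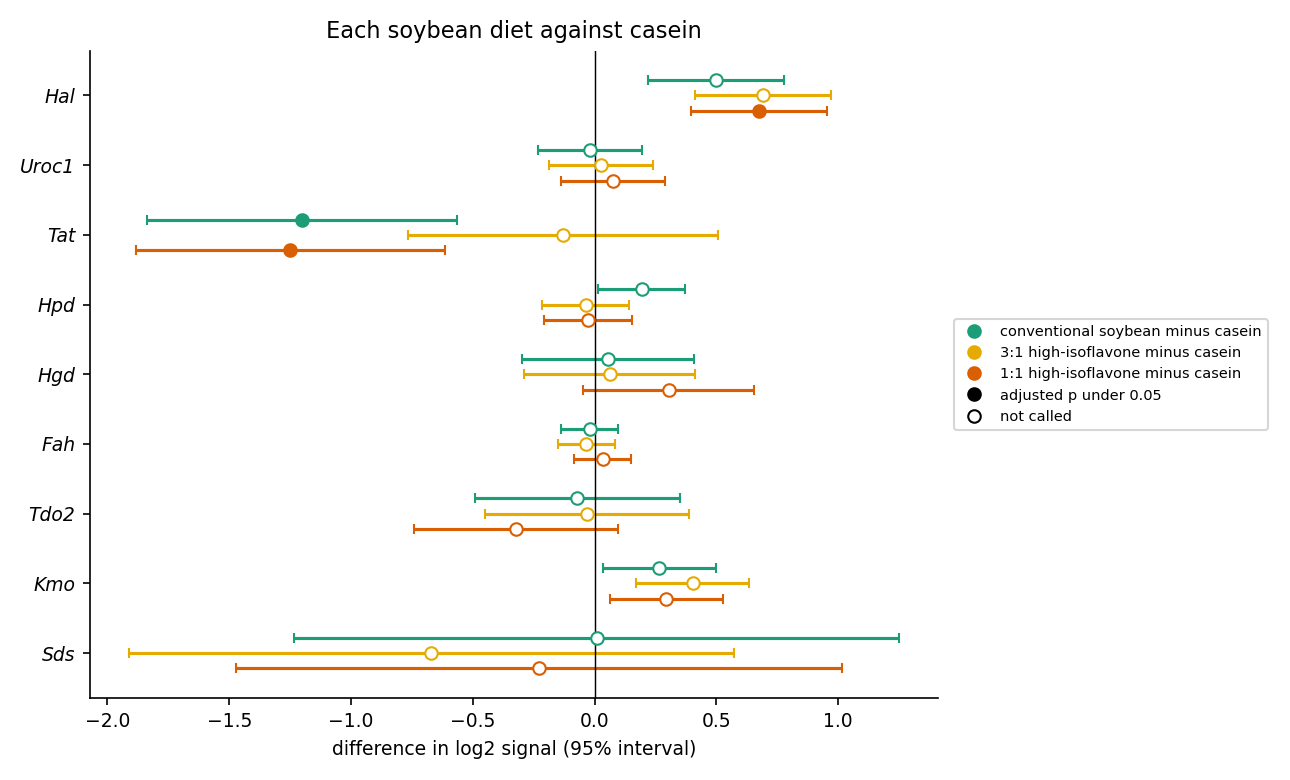
Difference in log2 signal of each enzyme on each soybean diet minus casein, with 95% intervals, filled where the limma adjusted p was under 0.05. Hal lies right of 0 on all 3 diets, Tat lies left of 0 on the conventional and 1:1 diets, and the interval of Sds is the widest of the 9.

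Tat encodes tyrosine aminotransferase, which takes the amino group from tyrosine and in rat liver is a classic target of glucocorticoid and glucagon. Hpd, the next enzyme, makes homogentisate. The promoter sequences of both are shown because Tat was called and the enzyme directly after it was not. They run 5′ to 3′ over 300 bases, of which 250 lie before the annotated start of transcription, in RefSeq's GRCr8 assembly. Capitals mark CCAAT or its reverse complement ATTGG.
Tat, chr19:54856354-54856653, plus strand: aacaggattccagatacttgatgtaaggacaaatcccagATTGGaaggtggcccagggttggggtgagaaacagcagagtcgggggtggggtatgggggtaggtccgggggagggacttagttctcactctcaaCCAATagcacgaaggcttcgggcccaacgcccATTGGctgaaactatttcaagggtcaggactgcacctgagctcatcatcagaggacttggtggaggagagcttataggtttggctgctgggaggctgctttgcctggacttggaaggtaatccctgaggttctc
Hpd, chr12:39041996-39042295, plus strand: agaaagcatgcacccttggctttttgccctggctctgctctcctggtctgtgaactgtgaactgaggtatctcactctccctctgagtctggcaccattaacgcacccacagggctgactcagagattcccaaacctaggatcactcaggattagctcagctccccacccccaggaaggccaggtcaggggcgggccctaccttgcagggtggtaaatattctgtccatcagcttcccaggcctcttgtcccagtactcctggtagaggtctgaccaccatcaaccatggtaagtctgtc

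The Tat window held CCAAT matches starting at 211, 116 and 84 bases before the start, on the minus, plus and minus strand in that order. At least 1 match was present in 37.5% of the 33469 promoters of this length and at least 3 in 3.02%. The other 5 motifs searched, also on both strands, matched neither window. They were the TATA box (TATAAA) in 14.2% of promoters, a C/EBP motif (TTGCGCAA) in 0.17%, and the cyclic AMP response element (TGACGTCA) in 1.83%. A forkhead motif (TGTTTAC) stood in 3.78% and the E-box (CACGTG) in 6.42%. The 3 CCAAT matches in Tat do not overlap. Promoters were available for 7 of the 9 genes. CCAAT matched 5 of these 7, namely Tat and the uncalled Uroc1, Hgd, Tdo2 and Kmo. A match describes letters only.

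Tat signal was 4.18, 4.05, 2.48, 4.28 and 3.73 on conventional soybean. It was 5.37, 4.20, 5.00, 4.72 and 4.79 on the 3:1 diet, and 3.92, 3.49, 4.40, 3.0 and 3.67 on the 1:1 diet. On casein it was 5.03, 4.27, 4.80, 5.16 and 5.47. Casein replicate 2 was low for its diet, and it lay within the range of the 1:1 rats and just below the highest conventional rat. The other 4 casein rats were above all 10 rats on those diets.

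On the 1:1 diet Tat averaged 3.70 ± 0.517, against 4.95 ± 0.449 on casein (SD, n = 5 each), 0.421 of the casein level with a limma adjusted p of 0.0331. On conventional soybean it averaged 3.74 ± 0.734, 0.435 of the casein level with a limma adjusted p of 0.0487. Calls of a lower signal made up 1.07% of probe sets on 1:1 and 0.621% on conventional soybean, and calls of a higher signal, as for Hal, 1.14% on 1:1. On the 3:1 diet it averaged 4.82 ± 0.429, a difference of -0.13 from casein with an interval of -0.77 to 0.50.

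The Tat calls lay near the threshold. Leaving out 1 array at a time ended the call on conventional soybean in 14 of 20 cases, with adjusted p-values of 0.0431 to 0.124 over all 20. Those were casein replicates 1, 3, 4 and 5, conventional replicates 1, 2, 3 and 5, 3:1 replicates 3, 4 and 5, and 1:1 replicates 1, 2 and 5. The difference ran over -1.37 to -0.89 in the 20 cases, with the smallest fall when conventional replicate 3 was left out. On the 1:1 diet the call ended in 5 of 20 cases, without casein replicate 1, 4 or 5 or without 1:1 replicate 2 or 4, where the adjusted p reached at most 0.0969. Without both arrays of higher floor, Tat had an adjusted p of 0.0919 on 1:1 and 0.120 on conventional soybean, and Hal one of 0.0265 on 1:1. Hal on the 1:1 diet was called in 20 of 20 cases, with an adjusted p of up to 0.0327.

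**Figure D3:**
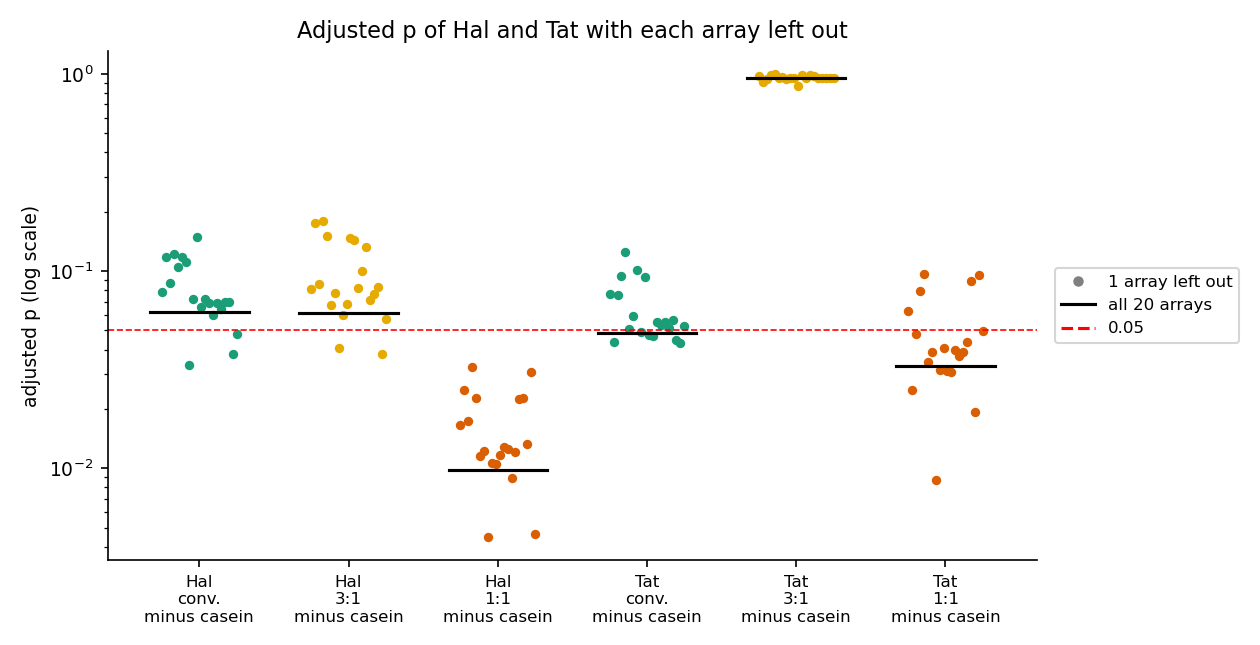
Limma adjusted p of Hal and Tat on each soybean diet minus casein, on a log scale, with each of the 20 arrays left out in turn (points) and with all arrays (bar), and 0.05 as a dashed line. All Hal points of the 1:1 diet lie under the line, while those of Tat on conventional soybean lie on both sides.

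Between the soybean diets, the 1:1 mean of Tat was below the 3:1 mean by 1.12, with a 95% interval of -1.75 to -0.48. Its limma p was 0.00144 before adjustment and 0.464 after it. In that comparison limma called 0 of 9 enzymes and 0% of probe sets, with 1 of 9 enzymes and 7.22% of probe sets under an unadjusted p of 0.05. The 1:1 diet minus the conventional diet gave -0.05 for Tat, with an interval of -0.68 to 0.59. Limma called 0 of 9 enzymes there, against 0.0758% of probe sets, and 1 of 9, Hpd, had an unadjusted p under 0.05, against 7.07% of probe sets. Along the series of shares Tat averaged 4.95 on casein, 4.82 on 3:1 and 3.70 on 1:1.

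**Figure D4:**
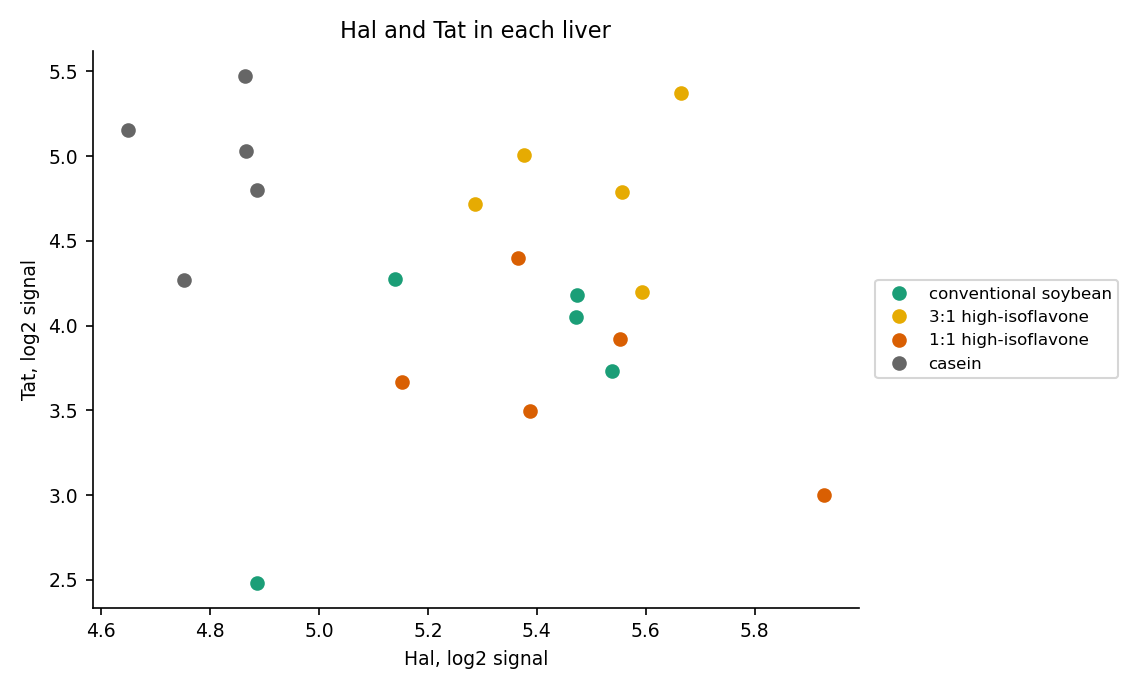
Hal against Tat log2 signal, with 1 point per liver. Casein livers lie at low Hal and high Tat, 3:1 livers at high Hal with Tat between 4.20 and 5.37, and 1:1 livers at high Hal and low Tat, while 1 conventional soybean liver lies low in both.

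None of the later tyrosine enzymes was called on any diet. Hpd, 4-hydroxyphenylpyruvate dioxygenase, was 8.99, 9.30, 9.39, 9.36 and 9.22 on conventional soybean, against 8.96, 9.01, 9.0, 9.21 and 9.14 on casein. The ranges overlapped, the difference was 0.19, and its limma adjusted p was 0.258. On the 3:1 and 1:1 diets Hpd averaged 9.03 ± 0.154 and 9.04 ± 0.115, against 9.06 ± 0.108 on casein. Hgd, homogentisate dioxygenase, which opens the aromatic ring, averaged 6.73 ± 0.482 on conventional soybean, 6.73 ± 0.266 on 3:1 and 6.98 ± 0.161 on 1:1, against 6.67 ± 0.128 on casein. Its 1:1 difference of 0.30 had an interval of -0.05 to 0.66.

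Fah, fumarylacetoacetase, ends the pathway. It was the steadiest of the 9, at 7.80 ± 0.0417 on conventional soybean, 7.79 ± 0.0786 on 3:1 and 7.86 ± 0.0622 on 1:1, against 7.82 ± 0.0493 on casein. Its 95% interval on the 1:1 diet was -0.09 to 0.15. Only 0.0397% of probe sets had a smaller SD within diets than the 0.0596 of Fah.

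Tdo2, tryptophan 2,3-dioxygenase, commits tryptophan to the kynurenine pathway. It was 6.95, 6.53, 6.83, 6.82 and 7.53 on the 1:1 diet, against 7.51, 7.69, 6.92, 7.25 and 6.90 on casein. The groups overlapped, and the difference was -0.32 with an interval of -0.74 to 0.10. On conventional soybean and 3:1 it differed from casein by -0.07 and -0.03.

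Kmo, kynurenine 3-monooxygenase, hydroxylates kynurenine further down that pathway. It was 4.57, 4.41, 3.98, 4.57 and 4.48 on conventional soybean, 4.69, 4.51, 4.56, 4.67 and 4.27 on 3:1, and 4.51, 4.36, 4.40, 4.51 and 4.36 on 1:1. On casein it was 4.11, 4.17, 4.39, 4.01 and 4.00. Casein replicate 3 and conventional replicate 3 lay apart from the rest of their diets, and all groups overlapped.

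The Kmo differences from casein were 0.27 on conventional soybean, 0.40 on 3:1 and 0.29 on 1:1, with limma adjusted p-values of 0.227, 0.239 and 0.178. The pooled difference was 0.32 (SE 0.091), with a limma adjusted p of 0.0703. With 1 array left out it stayed uncalled in 17 of 20 cases, the adjusted p reaching 0.199 without casein replicate 5, and without both arrays of higher floor it was 0.232. Without casein replicate 3, conventional replicate 3 or 3:1 replicate 5 it was under 0.05, at 0.0486, 0.0180 and 0.0445.

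Sds, serine dehydratase, turns serine into pyruvate and ammonia. Its signal was 1.88, 4.84, 4.67, 2.69 and 3.72 on conventional soybean, 3.15, 2.41, 2.56, 3.90 and 2.39 on 3:1, and 2.95, 3.81, 3.35, 2.56 and 3.95 on 1:1. On casein it was 2.91, 3.46, 2.17, 6.14 and 3.09. Casein replicate 4 was the highest of all 20 rats and conventional replicate 1 the lowest, and every group overlapped every other.

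Sds had a within-diet SD of 1.08, larger than in 99.8% of probe sets, where the median was 0.238. Its difference on conventional soybean was 0.01, with an interval of -1.23 to 1.25, so a doubling in either direction was not detectable with 5 rats per diet. The intervals on the 3:1 and 1:1 diets were -1.91 to 0.57 and -1.47 to 1.02. Tat, with a within-diet SD of 0.546, varied more than 96.0% of probe sets, and Hal, with 0.222, more than 43.6%.

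Pairs of the 9 enzymes showed no common swing between rats of the same diet that held after adjustment. Over 36 pairs and 20 rats, taken as deviations from the diet means, the highest Pearson correlation was 0.620, between Uroc1 and Tat (Spearman 0.459, permutation p for Pearson 0.0175, adjusted 0.315). It was 0.441 without the 2 rats farthest from the median of Uroc1.

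Outside the 9, 97 other genes of amino acid breakdown and of the responses to glucagon, fasting and glucocorticoid were measured. On the 1:1 diet limma called 0 of 4 other histidine genes, 0 of 8 phenylalanine and tyrosine genes, 1 of 12 tryptophan genes, 2 of 17 serine, threonine and glycine genes and 2 of 31 other amino acid and urea cycle genes. It called 0 of 25 genes responsive to glucagon, fasting or glucocorticoid. The unadjusted p was under 0.05 for 0 of the 4, 1 of the 8, 5 of the 12, 6 of the 17, 9 of the 31 and 5 of the 25, or 26 of 97 in all, against 16.8% of probe sets. Of all genes, 340 of 13462 or 2.53% were called. On conventional soybean 3 of the 97 were called, against 1.86% of all genes, and on 3:1 none was, against 0.0594% of all genes. On 3:1 16 of the 97 had an unadjusted p under 0.05, against 8.12% of probe sets.

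Maob, monoamine oxidase B, which deaminates amines derived from aromatic amino acids, rose on both diets with equal parts of soybean and casein protein. Its limma difference was 0.51 on 1:1 (adjusted p 0.00573) and 0.43 on conventional soybean (adjusted p 0.0246). Gcat, which works in threonine breakdown to glycine, fell by 0.57 on 1:1 (limma adjusted p 0.0109) and fell by 0.48 on conventional soybean (adjusted p 0.0375). Bckdk, the kinase that holds back branched-chain amino acid oxidation, fell by 0.73 on 1:1 and fell by 0.80 on conventional soybean (limma adjusted p 0.0347 and 0.0291). Grhpr, a glyoxylate and hydroxypyruvate reductase, rose by 0.32 on 1:1 (limma adjusted p 0.0233), and Dao, D-amino acid oxidase, by 0.55 (adjusted p 0.0388). On 3:1 Maob differed from casein by 0.35, Gcat by -0.42, Bckdk by -0.53, Grhpr by 0.25 and Dao by 0.01. None of these was called (limma adjusted p 0.233, 0.233, 0.418, 0.258 and 0.995). No difference between the 1:1 and 3:1 diets was called in any of these genes, where 0% of all probe sets were called. In that comparison Dao was 0.54 higher on 1:1, with a limma p of 0.000836 before adjustment and 0.464 after it. For Maob, Gcat, Bckdk and Grhpr the unadjusted limma p was 0.103 to 0.412. Centring and scaling the arrays ended the Grhpr call, with a difference of 0.14 and an adjusted p of 0.538, and the Maob calls, with 0.38 on 1:1 (adjusted p 0.0811) and 0.30 on conventional soybean (adjusted p 0.163). It also ended the Dao call (adjusted p 0.0785). Leaving out 1 array at a time ended none of the calls of Maob and Gcat on the 1:1 diet. On conventional soybean it ended that of Maob without casein replicate 3, 4 or 5 or conventional replicate 2 or 4, and that of Gcat without casein replicate 2, 4 or 5 or conventional replicate 1, 2, 3 or 5. The Bckdk calls ended without casein replicate 2, 3, 4 or 5, the one on conventional soybean also without conventional replicate 2, 3, 4 or 5, and the one on 1:1 also without 1:1 replicate 2 or 4. Grhpr lost its call without casein replicate 2 or 4 or 1:1 replicate 1, 2 or 4, and Dao without casein replicate 1, 3 or 4 or 1:1 replicate 1, 2, 3 or 4, with adjusted p-values of up to 0.109 over these cases.

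**Figure D5:**
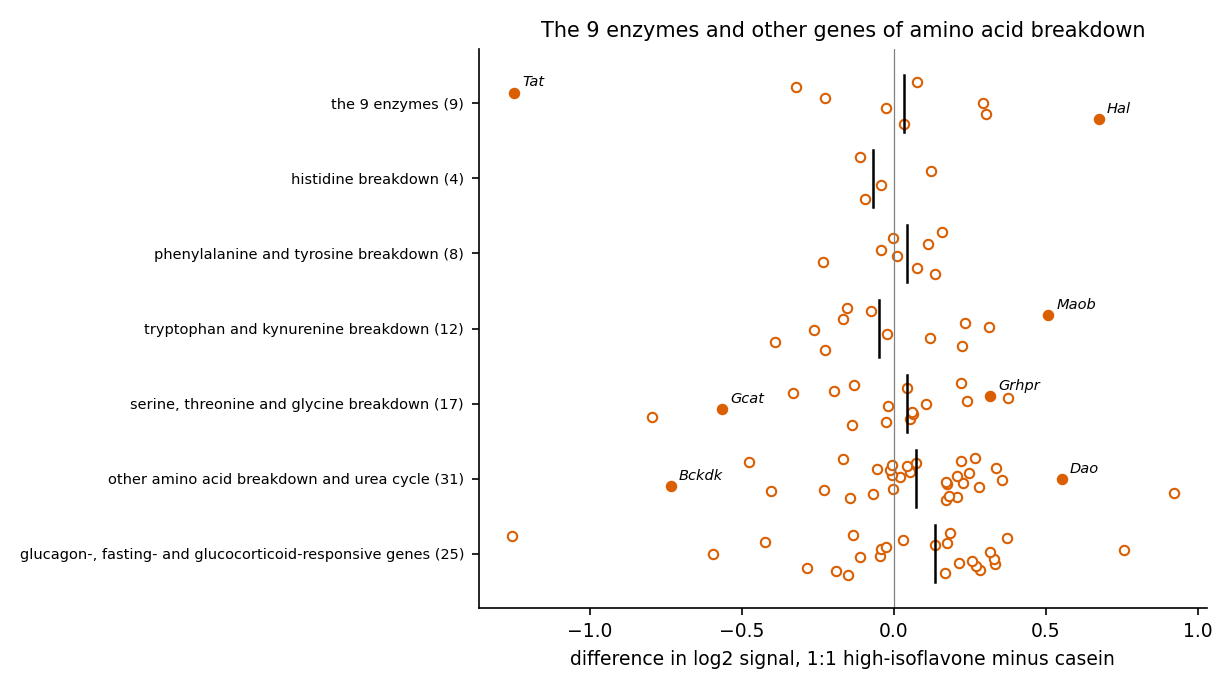
Difference in log2 signal on the 1:1 high-isoflavone diet minus casein for the 9 enzymes and for 6 lists of other genes, with 1 point per gene, filled where called, and the list median as a bar. Tat and Hal lie at the ends of their group, and the list medians lie between -0.07 and 0.13.

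Over the 20 livers, the genes most like Tat by Pearson correlation were Insig1 at 0.888, Ddhd1 at 0.861 and Sesn2 at 0.851. Insig1, which restrains cholesterol synthesis, differed from casein by -1.63 on 1:1 (limma adjusted p 0.0898) and -1.26 on conventional soybean (adjusted p 0.197). Ddhd1, a phospholipase, fell by 1.89 on 1:1 (limma adjusted p 0.000181) and fell by 1.72 on conventional soybean (adjusted p 0.00126), and differed by -0.67 on 3:1 (adjusted p 0.424). Sesn2 had 2 probe sets, neither of them called on any diet. They differed from casein by -0.38 and -0.15 on 1:1, -0.41 and -0.28 on conventional soybean, and 0.27 and -0.08 on 3:1. The genes most like Hal were Jam3 at 0.870, Tmem37 at 0.858 and Csad at 0.852. Jam3, a junctional adhesion molecule, rose by 0.35 on 1:1 (limma adjusted p 0.0381). Csad, an enzyme of taurine synthesis, differed from casein by 0.90 on conventional soybean, 0.97 on 3:1 and 0.85 on 1:1 (limma adjusted p 0.0797, 0.233 and 0.0927). Within diets the correlations with Tat were 0.819 for Insig1, 0.686 for Ddhd1 and 0.783 for Sesn2. Those with Hal were 0.693 for Jam3, 0.742 for Tmem37 and 0.741 for Csad. These genes were picked for their likeness, so the correlations are a description of 20 livers that share 4 diets.

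Some lists of markers of other cells lay to 1 side of casein. All 10 macrophage markers measured were below casein on the 1:1 diet, as were 5832 of all 13462 genes. The median difference of the 10 was -0.32 with none called, and their summed signal was 233 to 274 on 1:1 against 262 to 367 on casein. All 8 pancreas markers were above casein on conventional soybean, as were 7872 of all 13462 genes. Array medians were also higher on that diet, at 2.51 to 2.56 against 2.43 to 2.49 on casein. The summed signal of the 8 markers was 77.3 to 84.1 against 59.6 to 73.1, and Cela2a was called (0.69, limma adjusted p 0.0493). Cela2a was dim, with a mean above that of 25.1% of probe sets. Of 4 kidney markers 3 were also above casein on conventional soybean and 1 below. Their median difference was 0.23, beside 0.26 for the pancreas markers. All 6 lymphocyte markers were above casein there too, at 46.3 to 113 summed (median 52.3) against 34.6 to 46.2 (median 45.4). On 3:1 the sum also reached 109, with a median of 41.8. None of the 6 was called on conventional soybean, where their median difference was 0.22 and the highest 1.88. Of 5 bile duct markers 1, Epcam, was called lower on the 1:1 and conventional diets. It fell by 0.95 on 1:1 (limma adjusted p 0.00251) and fell by 0.71 on conventional soybean (adjusted p 0.0257). Its groups did not overlap with casein on either diet. On each of these diets 3 of the 5 markers were above casein and 2 below, with none called higher. Their median difference was 0.04 on 1:1 and 0.07 on conventional soybean. In the pooled contrast 1 of the 5 was called higher and 1 lower. Of 4 neutrophil markers 1, Camp, rose on conventional soybean (0.99, limma adjusted p 0.0492), from a dim casein mean of 1.46. The other 3 were below casein, and the median difference of the 4 was -0.01. Of 13 periportal genes, which mark the zone where Hal and Sds are mostly made, 1, Aldh1b1, was called lower on the 1:1 and conventional diets. None was called higher. Of 12 pericentral genes none was called. The part of these markers in the Hal and Tat results was not tested.

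Single arrays also stood at the edge of several enzymes. Conventional replicate 3 was the lowest of its diet for 5 of 9 enzymes (Hal, Uroc1, Tat, Fah and Kmo). Its 3′ minus 5′ actin difference, a sign of RNA integrity, was 1.83, the highest of the 5 conventional arrays, against 1.29 to 1.53 on casein. The array 3:1 replicate 1 was the highest of its diet for 6 of 9 and had the highest actin difference of all, 2.13. In 1:1 replicate 5, the lowest of its diet for 3 of 9 and the highest for 2, the actin difference was 2.10. In conventional replicate 4 it was 1.76. The same difference for GAPDH did not set the first 2 arrays apart. It was 0.92 in conventional replicate 3 and 0.94 in 3:1 replicate 1, against 0.85 to 1.06 on casein. The part of RNA integrity in these values was not tested.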

How the data were processed

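Liver RNA of 20 rats, 5 per diet, was biotin-labelled with a kit for 3′ in vitro transcription. The authors deposited 1 table of log10 values for all arrays, normalized with the SuperNORM data service, per the labels. That the values are log10 was inferred from the files, since the spike-in controls gave a slope of 0.997 log10 units per log10 unit of amount (SD 0.0242, 20 arrays). For probe summarization and genome build, the sources used here give nothing. Values were multiplied by 3.3219 to give log2, with no further normalization.

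Of 31099 probe sets, 57 controls and 3342 without a value (2 in both) were left out, which left 27702. Of these, 19147 had 1 gene symbol in the platform annotation, 404 had several and 8151 had none listed. Where a gene had several probe sets, the one of highest mean stood for it.

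Diet means were fitted over all 20 arrays with limma 3.58.1 (lmFit, eBayes with trend) in R 4.3.3, two-sided, with Benjamini-Hochberg adjustment over 27702 probe sets. The fit was tested on simulated data. Named genes were the 9 enzymes, the genes of each pathway list called in any of 5 pairwise comparisons (at most 4 a list), and the 3 genes most correlated with each enzyme called in any of those comparisons. The enzymes, lists and markers were chosen with earlier results of these data known, so counts over them are descriptions. Precision is limited by the number of arrays. Alternatives were other scalings, filters, spread models, array weights, a block on replicate numbers and leaving out arrays.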

Additional observations from a re-analysis of the deposited data

Results flagged for a closer look

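Of 36 groups of 5 rats (9 enzymes in 4 diets), 3 held a rat far from the others by Dixon's test, and chance alone flags about 1 group in 20. Uroc1 was 6.81 in conventional soybean replicate 3, where the nearest of its diet was 7.18. Kmo was 3.98 in the same rat, where the nearest was 4.41. Hgd was 6.27 in 3:1 high-isoflavone replicate 5, where the nearest was 6.76.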

How the results depend on the processing

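Counts of the 9 enzymes called depended on the arrays and settings used. On conventional soybean 1 was called, with 0 to 2 when 1 array was left out, 0 without a trend in the spread, 0 with only the compared arrays, 2 with array quality weights, and 0 without the 2 arrays of higher floor or without number 1 of all diets, both chosen after seeing the data. On 1:1 2 were called, with 1 to 2 when 1 array was left out and 1 under each of those last 2 settings. On 3:1 0 were called, with 0 to 1 when 1 array was left out and 1 with only the compared arrays, with array weights or with the mean of a gene's probe sets. In the pooled contrast 1 was called, with 1 to 2 when 1 array was left out and 2 with centred and scaled arrays or with array weights. The 1:1 diet against the conventional or 3:1 diet and the departure from a straight line gave 0 in every setting run. Of the 97 other genes 5 were called, with 3 to 6 when 1 array was left out, 3 without a trend and 8 with array weights. Over all settings 87 single-gene differences turned sign, 0 of them called before or after (lowest adjusted p 0.507), 60 with 1 array left out and 13 with centred and scaled arrays. Those 13 were Grhpr (to -0.011), Hgd (-0.093) and Sds (-0.084) on conventional soybean, Fah (-0.14) and Uroc1 (-0.084) on 1:1, Uroc1 (-0.066), Hgd (-0.020) and Dao (-0.032) on 3:1, Fah (-0.0057), Uroc1 (-0.018) and Hpd (-0.072) on 1:1 against 3:1, and Uroc1 (-0.11) and Hpd (-0.13) pooled; the cause was not tested. The Grhpr call on 1:1 also ended without a trend (adjusted p 0.0626) and with only the compared arrays (0.0558). Hal on 1:1 was called in all 11 other settings (adjusted p up to 0.0430). Replicate numbers were not used as pairs. Same-numbered rats of different diets correlated at -0.16 to 0.40 (12 of 30 pairs over 0.1, against 16 of 120 pairs of different numbers). Number 1 rats did deviate together (6 of 6 pairs over 0.1, 0.20 to 0.40), while each other number had 1 to 3 of 6 pairs over 0.1. With the replicate block 1, 2 and 0 enzymes were called on conventional soybean, 1:1 and 3:1, and the block ended the call of Dao (adjusted p 0.0610).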
